A study of Mus musculus with 92 samples.

Results

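Tropomyosins are coiled-coil proteins that lie along the actin filament. In striated muscle they work with the troponin complex and set when myosin can bind actin, and outside the sarcomere other forms stabilise the actin of the cytoskeleton. Tpm1 encodes the alpha form of fast and cardiac fibres, Tpm2 the beta form, and Tpm3 the form of slow fibres together with cytoskeletal forms made from an internal start. Tpm4 encodes a cytoskeletal form, and Tpm3-rs7 is a retrogene, an intronless copy of a Tpm3 messenger RNA inserted elsewhere in the genome.

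The 5 members were chosen by name as the tropomyosin lines of the table, Tpm1, Tpm2, Tpm3, Tpm3-rs7 and Tpm4, and make up 5 of 13441 genes. Their levels, the split of Tpm3-rs7 between animals and its relation to Tpm3 and to neighbouring genes were known when they were chosen, so those are described here with no test. Polyadenylated RNA was sequenced from the quadriceps, a predominantly fast limb muscle, of 92 DOz mice, an outbred stock in which every animal carries its own mixture of founder alleles. All had eaten standard chow for life and were about 18 to 20 weeks old. The labels give 1 group, name 1 sample per title and give no genotype for any animal. Values are log2 per-million values; their depth in reads is unknown, so precision comes only from the spread between animals. Sample medians lay between 3.43 and 3.55, and the fast myosin Myh4 had a mean of 15.90, while Ttn, the longest transcript of muscle, stood at 13.90, so the values are not divided by gene length.

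The sequences show how close the retrogene is to its parent. In the GENCODE M21 annotation (GRCm38, the build that the submitters' processing notes name as mm10), Tpm3 (ENSMUSG00000027940) lies at chr3:90072649-90100902 on the plus strand, and Tpm3-rs7 (ENSMUSG00000058126) lies at chr14:113314608-113316754 on the plus strand as an unspliced transcript with a coding part. GENCODE marks it as a protein-coding retrogene, and the RefSeq table of the same assembly lists it as a pseudogene. Its transcript of 2147 bases was closest to the Tpm3-201 transcript of 2230 bases, a cytoskeletal form. Over 2109 aligned columns the pair differed at 14 bases and 6 gap columns, an identity of 99.1%. The coding parts, 747 bases each, differed at 3 bases, all within the stretch shown here, coding bases 8 to 127 of both, chr14:113314683-113314802 for Tpm3-rs7. Capitals mark the bases that differ.
Tpm3-rs7: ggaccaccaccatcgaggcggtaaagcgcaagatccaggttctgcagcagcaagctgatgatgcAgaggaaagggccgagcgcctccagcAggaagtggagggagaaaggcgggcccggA
Tpm3: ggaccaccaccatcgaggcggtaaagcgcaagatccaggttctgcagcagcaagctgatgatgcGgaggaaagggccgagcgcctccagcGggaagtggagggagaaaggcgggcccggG
The longest identical run of the coding parts was 620 bases. The closest coding parts of Tpm1, Tpm4 and Tpm2 were 74.2%, 71.9% and 69.2% identical to that of Tpm3-rs7.

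This likeness limits how far reads can be told apart. Of the 2117 stretches of 31 bases in the Tpm3-rs7 transcript, 78.6% also occurred in a Tpm3 transcript, and 21.4% were found in no other gene of the annotation. Of its own stretches 344 started in the 3′ UTR, 108 in the coding part and 1 in the 5′ UTR. Seen from Tpm3, 73% of its 6195 stretches were its own. For Tpm1 and Tpm2 the share of own stretches was 99.9% and 99.7%. For Tpm4 it was 80%, with 347 of 2173 stretches shared with Gm7809. The levels of Tpm3 and Tpm3-rs7 are therefore uncertain to the extent that reads were divided between them, and how those reads were divided was not tested.

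**Figure D1:**
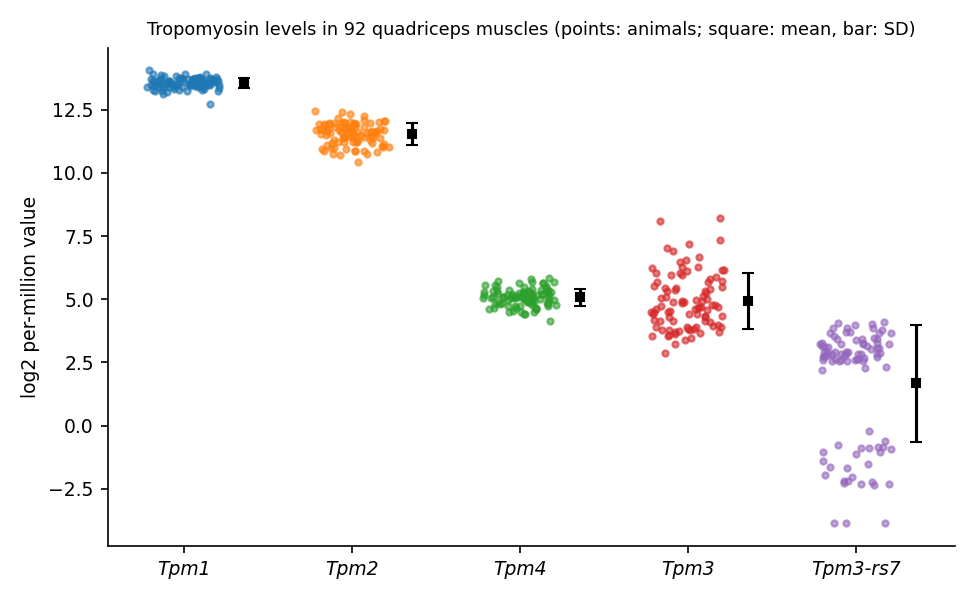
Log2 per-million value of each tropomyosin (vertical axis) in 92 animals; points are animals, the square is the mean and the bar the SD. Tpm1 and Tpm2 lie highest, with SDs of 0.20 and 0.42. Tpm3 spreads from 2.86 to 8.21, and Tpm3-rs7 falls into a set between -3.86 and -0.21 and another between 2.18 and 4.08.

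Tpm1 and Tpm2 made up nearly all tropomyosin signal. Tpm1 (ENSMUSG00000032366, chr9:67022590-67049406, minus strand) had a mean of 13.56 ± 0.20 (SD, n = 92), from 12.74 through a median of 13.56 to 14.06, and ranked 16 of all genes by its mean. Tpm2 (ENSMUSG00000028464, chr4:43514711-43523765, minus strand) had a mean of 11.54 ± 0.42 (SD, n = 92), from 10.44 through a median of 11.60 to 12.45. Tpm1 was above Tpm2 in all 92 animals on this scale. As a share of the summed linear values of the 5 genes, Tpm1 took a median of 78.8% (59.4% to 90.3%) and Tpm2 a median of 20.6% (9.39% to 39.5%). With values divided by merged exon length those medians were 62.6% (39.7% to 80.6%) and 36.5% (18.7% to 59%).

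The other members were far lower. Tpm4 (ENSMUSG00000031799, chr8:72134975-72153142, plus strand) had a mean of 5.07 ± 0.34 (SD, n = 92), from 4.12 through a median of 5.09 to 5.84. Tpm3 had a mean of 4.93 ± 1.11 (SD, n = 92), from 2.86 through a median of 4.71 to 8.21, a range of 40.6-fold between animals. Its SD exceeded those of all 200 genes nearest to it in mean, whose median SD was 0.23. Tpm1, with 97 of its 200 nearest genes below it in SD, lay in the middle of such genes, and Tpm2 (182 of 200) and Tpm4 (165 of 200) towards their upper end.

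Compared per length, the order of the higher pair kept its direction in most animals and that of Tpm3 and Tpm4 did not hold. Divided by merged exon length, the log2 means per kb were 10.86 for Tpm1, 0.86 less for Tpm2, 3.93 for Tpm4, 2.32 for Tpm3 and 0.58 for Tpm3-rs7, with Tpm1 above Tpm2 in 89 of 92 animals and Tpm4 above Tpm3 in 84. Divided by the median length of the protein-coding transcripts, a length chosen after seeing the data, the means were 12.84 for Tpm1, 10.83 for Tpm2, 4.74 for Tpm3, 3.98 for Tpm4 and 0.58 for Tpm3-rs7, and Tpm3 was above Tpm4 in 63 of 92 animals. For Tpm3 that median is 1139 bases, from coding transcripts of 341 to 2233 bases, and for Tpm4 it is 2128. Which of Tpm3 and Tpm4 was more abundant thus depended on the length used and on the animal.

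The values of Tpm3-rs7 formed 2 sets with nothing between them. In 27 animals (29.3%) the value lay between -3.86 and -0.21, with a median of -1.66, and in 65 animals (70.7%) between 2.18 and 4.08, with a median of 3.03. The gap of 2.39 log2 units separated the animal just below it at -0.21 from the one just above it at 2.18, a 5.23-fold step. In 3 animals the value was -3.86, the lowest value of many genes in the table and so a floor, and the next-widest gap, 1.51, lay just above those 3. Of 11116 genes averaging 1 or more on this scale, the gap ranked 17 when at least 5 animals were required on each side; the widest such gaps of Tpm1, Tpm2, Tpm3 and Tpm4 were 0.04, 0.08, 0.25 and 0.08. The lower set took between 21.4% and 33.3% of the animals in each of the 5 runs of title numbers, so neither set was gathered in a run.

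Tpm3 ranged widely on both sides of the gap. The SD of Tpm3-rs7 was 0.48 in the upper 65 animals, in which Tpm3 went from 2.86 to 7.17. In the lower 27 animals Tpm3 went from 3.90 to 8.21, so the ranges of Tpm3 overlapped over most of their length. Within each set the relation of parent and copy is given as a description, with r = 0.0593 and rho = 0.0309 over the upper 65 animals, and r = -0.0905 and rho = -0.0641 over the lower 27. Without the 3 values at the floor, r over the 24 remaining lower animals was -0.24. Over all 92 animals the slope of Tpm3 on Tpm3-rs7 was -0.38 ± 0.11 (SE) log2 units per SD of Tpm3-rs7.

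The share of the pair's signal assigned to the copy varied accordingly. Of the summed linear values of Tpm3 and Tpm3-rs7, the copy held a median of 25.7% (4.43% to 59.3%) in the upper set and of 0.691% in the lower set, where it reached at most 3.18%. In the 3 animals at the floor the share is an upper bound, 0.0251% in the animal where it was lowest. Tpm3-rs7 was above Tpm3 in 5 of 92 animals undivided by length, in 32 per kb of merged exons and in 0 per kb of median coding transcript. The last length is 1139 bases for Tpm3 and 2147 for the copy, although Tpm3-201, the closest transcript, has 2230 bases. The log2 of the sum had a mean of 5.28 ± 0.92 (SD, n = 92), from 3.62 to 8.21, against an SD of 1.11 for Tpm3 alone.

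**Figure D2:**
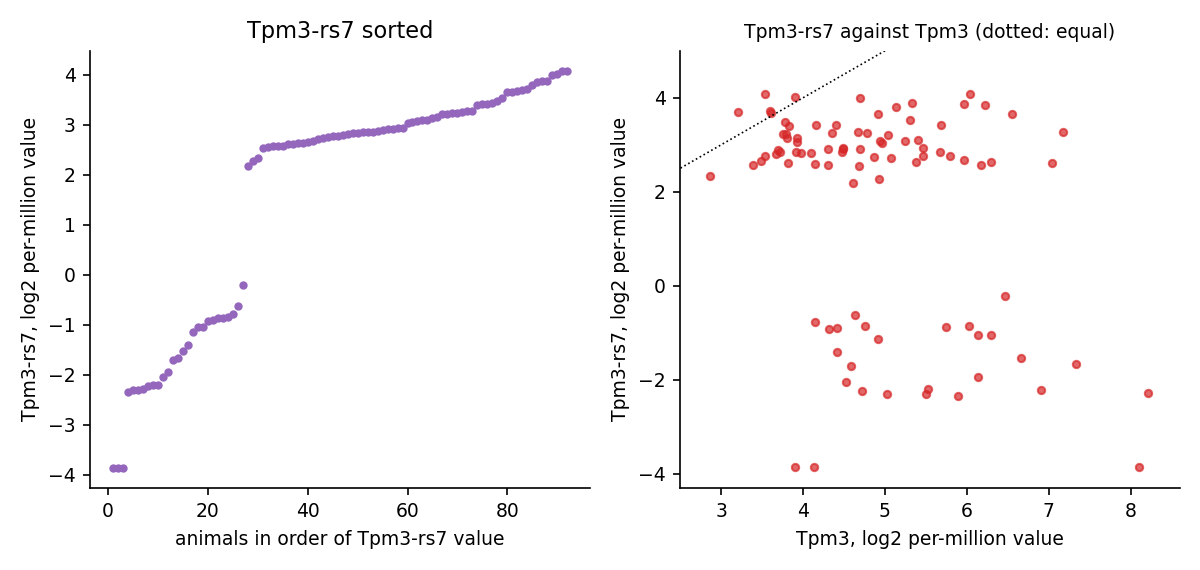
Left, the Tpm3-rs7 log2 per-million value of each of 92 animals in rising order; right, the same value against Tpm3 for each animal, with a dotted line where both are equal. A step from -0.21 to 2.18 separates 27 animals from 65, and r with Tpm3 is 0.0593 in the upper and -0.0905 in the lower set.

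The number of genes that varied with Tpm3-rs7 depended on the animals fitted. In a linear model for each gene (limma), a slope is the log2 change of the gene per SD of the tropomyosin between animals, and genes at a Benjamini-Hochberg adjusted p under 0.05 are called past the threshold. For Tpm3-rs7, 2 of 13440 genes (0.0149%) passed, 1 rising and 1 falling (0.00744% each). The falling gene was Snapin, a neighbour of Tpm3, so its place in the count is not read as a test. At an unadjusted p under 0.05 the number was 910 (6.77%). With the run of title numbers as covariate 4 passed, and within the 65 animals above the gap 27 passed, 1 of them shared with the 2. Nothing is read from these counts for the neighbours of Tpm3, whose relation to Tpm3-rs7 was known beforehand. Mrpl19, a protein of the mitochondrial ribosome encoded on chromosome 6, rose, with a slope of 0.12 ± 0.03 (SE, limma adjusted p = 0.0226). Mrpl19 did not pass without the 2 animals farthest from the median (limma adjusted p = 0.0773). Within the 65 animals above the gap its slope was -0.01, there per SD of 0.48 against 2.31 over all 92 animals.

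Among those neighbours, Snapin, which encodes a SNARE-associated protein of vesicle traffic, is described with no test. It had a slope of -0.09 ± 0.01 (SE) and the largest moderated t of the fit by size, -7.24. It starts 0.42 Mb from Tpm3, at chr3:90488026-90491033, and not near the copy on chromosome 14. Its values ran from 5.77 through a median of 6.08 to 6.41, a narrow range with an SD of 0.14. Its slope on Tpm3-rs7 was negative in 5 of 5 title-number runs. Over the 65 animals above the gap its r with Tpm3-rs7 was -0.496, and over the 27 below it was -0.0718. Its slope on Tpm3 itself was 0.01 ± 0.02 (SE, limma adjusted p = 0.873).

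The neighbours are given as a description with no test, since their relation to Tpm3-rs7 was known when the genes were chosen. The table holds 205 measured genes within 10 Mb of the Tpm3 start and 31 within 10 Mb of Tpm3-rs7. Both are small parts of the 13440 genes fitted, and for the window of Tpm3-rs7 a count of 0 among 20 genes lies at the background. Of the 20 genes with the largest moderated t by size, 5 lay within 10 Mb of Tpm3 and 0 within 10 Mb of Tpm3-rs7. Besides Snapin they were Zfp687, a zinc finger protein 4.93 Mb away (slope 0.16 ± 0.04, SE), Cers2, the ceramide synthase of very long chains 5.24 Mb away (0.08 ± 0.02), Slc39a1, a zinc transporter 0.18 Mb away (0.06 ± 0.02), and Sema6c, a semaphorin 5.09 Mb away (0.11 ± 0.03). Within the upper and the lower set, r with Tpm3-rs7 was 0.424 and 0.0564 for Cers2, 0.385 and 0.404 for Slc39a1, 0.0604 and -0.208 for Zfp687 and -0.101 and -0.111 for Sema6c.

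The measured genes nearest to each locus, named below, were lower in that order. Slc39a1, just beyond those named after Tpm3, ranked 13. On either side of Tpm3 the nearest measured genes were Hax1, Ubap2l and 4933434E20Rik before it and Rps27, Rab13 and Jtb after it, with slopes on Tpm3-rs7 between -0.05 and 0.01. Hax1, an anti-apoptotic protein of mitochondria, had the largest of these by size at -0.05 ± 0.02 (SE). Around Tpm3-rs7 the measured genes are sparse, with 1 within 2 Mb, 4 within 5 Mb and 31 within 10 Mb. The nearest were 9330188P03Rik, Gm10076 and Spry2 before it, 7.42 Mb or more away, and Mir17hg, Gpc6 and Tgds after it, 1.73 to 4.80 Mb away, with slopes from -0.08 to 0.11 and moderated t values from -1.33 to 1.83.

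**Figure D3:**
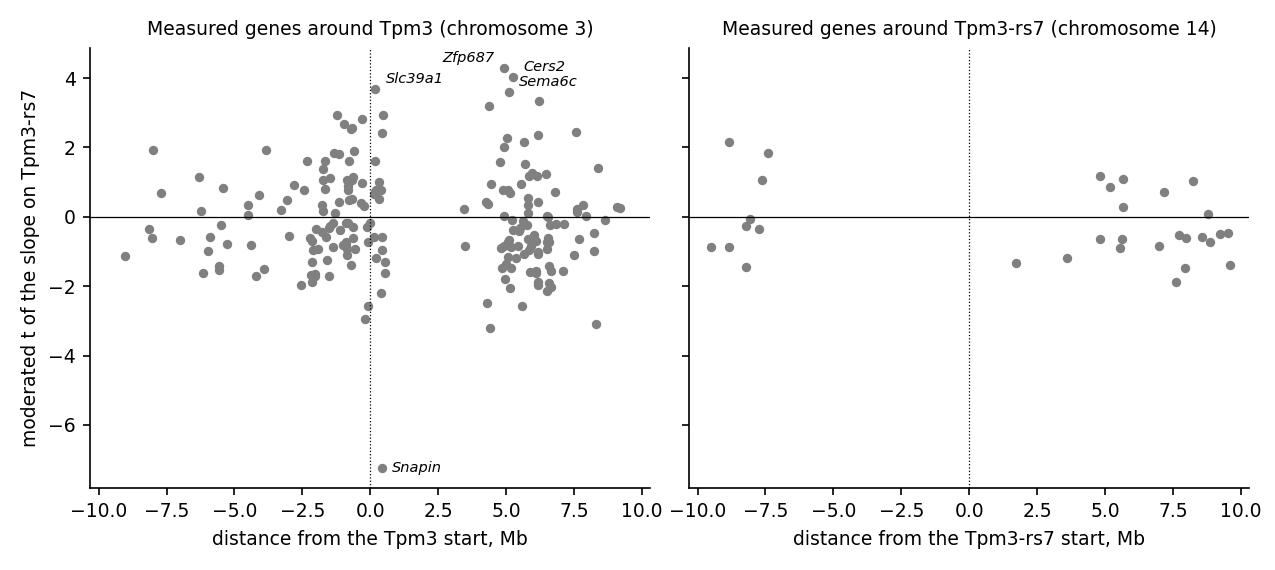
Moderated t of the slope on Tpm3-rs7 (vertical axis) for every measured gene within 10 Mb, by distance in Mb from the start of Tpm3 (left, 205 genes) and of Tpm3-rs7 (right, 31 genes); names mark those among the 20 with the largest t by size. Snapin lies 0.42 Mb from Tpm3 at a t of -7.24, and the values around Tpm3-rs7 lie between -1.88 and 2.16.

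Tpm3 varied with the slow fibre programme. In its own fit 42 of 13440 genes passed (0.312%), 36 rising (0.268%) and 6 falling (0.0446%). Of the 10 slow fibre genes 9 rose, with a list median slope of 1.15 against a median of 0.001 over all genes. The troponin subunits Tnnc1 (slope 1.56 ± 0.07, SE), Tnni1 (1.48 ± 0.09) and Tnnt1 (1.38 ± 0.07), which bind calcium, inhibit and anchor to tropomyosin, rose together with the slow myosin Myh7 (1.62 ± 0.10) and its regulatory light chain Myl2 (1.24 ± 0.08). Atp2a2, the slow calcium pump (0.64 ± 0.03), Myoz2, a Z-disc protein (0.51 ± 0.07), and Casq2, the slow calsequestrin (0.38 ± 0.07), rose less per SD of Tpm3. Limma adjusted p-values (Benjamini-Hochberg) of the 9 ran from 2.65e-33 to 0.000905. Myl6b, a light chain in the same list, had a slope of 0.02 ± 0.04 (SE, limma adjusted p = 0.955). Myh6, which shares long stretches of near-identical sequence with Myh7, rose at 1.51 ± 0.09 (SE), a value that is uncertain for that reason.

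The relation of Tpm3 to Myh7 was the closest of 10 tested among Tpm1, Tpm2, Tpm3, Tpm4 and Myh7. Pearson's r was 0.868 (two-sided permutation p = 1e-05, the smallest the resamples can give, adjusted p = 0.0001 over the 10 relations) and Spearman's rho 0.901 (permutation p = 1e-05), and r stayed at 0.858 once the 2 animals with the most extreme Tpm3 were left out. It was 0.801 to 0.956 within the 5 title-number runs. The animals with the highest Tpm3, 8.21 and 8.10, had Myh7 at 8.41 and 8.29 and Tpm3-rs7 at -2.29 and -3.86. Among those with the lowest Tpm3, 2 had little Myh7 (Tpm3 3.21 with Myh7 1.88, and 3.39 with 1.71), and the lowest of all, Tpm3 2.86, had Myh7 at 4.90. In bulk muscle, more slow fibres and more of these transcripts per fibre cannot be told apart.

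Few genes of the other lists passed with Tpm3, and with 0.312% of all genes past the threshold a count of 0 in a short list lies at the background. Of 12 fast fibre genes, 0 passed, and of 11 genes of the thin filament and its assembly Lmod2, a leiomodin that elongates thin filaments, rose (slope 0.22 ± 0.06, SE, limma adjusted p = 0.0498), a call that was lost in 5 of 6 alternative fits. Of the lists for cytoskeletal actin, smooth muscle, fibroblasts, endothelium, macrophages, adipocytes, Schwann cells, satellite cells, immature fibres, SRF and MRTF targets and blood, 0 genes passed. The named falling genes were Gm56936 (-0.17 ± 0.03, SE), Grina (-0.07 ± 0.01), Themis3 (-0.41 ± 0.10), Prkcd (-0.18 ± 0.04) and Fam98c (-0.12 ± 0.03), with limma adjusted p-values from 0.000977 to 0.0446. Of these, Themis3, Prkcd and Fam98c did not pass without the 2 animals farthest from the median. Of the 113 genes within 5 Mb of Tpm3, 0 passed in the Tpm3 fit, which is also at the background of 0.312%.

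**Figure D4:**
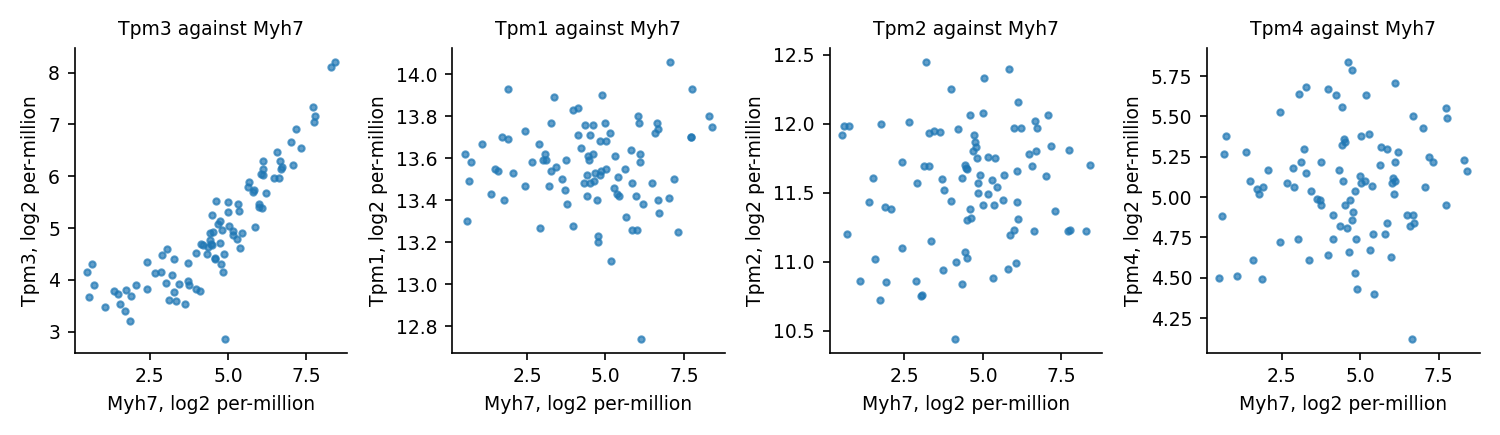
Log2 per-million value of Tpm3, Tpm1, Tpm2 and Tpm4 (vertical axes) against that of the slow myosin Myh7 (horizontal axis), 1 point per animal, 92 animals. Tpm3 climbs with Myh7 (r = 0.868) and flattens where Myh7 is low, while r in the other panels runs from 0.0191 to 0.13.

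Tpm1 varied with the fast fibre genes. Its fit had 2310 genes past the threshold (17.2%), 1209 rising and 1101 falling (8.19%). Of the 12 fast fibre genes 11 rose (background 9% rising) and 1 fell. Among them were Actn3, the fast alpha-actinin of the Z-disc (slope 0.19 ± 0.02, SE), Pvalb, the calcium buffer of fast fibres (0.17 ± 0.02), and the fast troponins Tnnc2 (0.15 ± 0.01), Tnnt3 (0.12 ± 0.01) and Tnni2 (0.11 ± 0.01). The fast myosin Myh4 rose at 0.12 ± 0.02 (SE), and Myh1, the IIX myosin, fell at -0.21 ± 0.04. Limma adjusted p-values of the 12 ran from 1.19e-13 to 0.00077. The slopes are small in log2 units because the genes themselves spread little, with an SD of 0.25 for Actn3 and 0.14 for Tnnt3. The count of 2310 rested in part on few animals and on the covariates: it was 892 with the first 3 principal components as covariates, 1599 without animal 84, whose Tpm1 level of 12.74 was the lowest and whose highest gene was the mitochondrial mt-Co1 (15.32), and 1210 without animals 84 and 29 (Tpm1 14.06, the highest).

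Among genes of the thin filament, the fit on Tpm1 split. Acta1, skeletal actin (0.08 ± 0.02, SE), and Tmod4, the tropomodulin that caps thin filaments in muscle (0.10 ± 0.02), rose. Lmod2 (-0.23 ± 0.05), Lmod3 (-0.08 ± 0.03) and Cfl2, the muscle cofilin (-0.07 ± 0.02), fell, and 6 of 11 did not pass (background 9% rising and 8.19% falling). With the 3 principal components as covariates, and also without the 2 farthest animals, 2 of the 11 fell. The slow fibre list held 0 of 10 genes past the threshold, and Myh7 had a slope of 0.04 ± 0.19 (SE, limma adjusted p = 0.927). With the run of title numbers as covariate 1 slow fibre gene fell, and without animal 29 the number was 2. The genes most like Tpm1 by moderated t were Actn3, Tnnt3, Tnnc2, Rtn2, a reticulon, and Calm3, a calmodulin gene. Those most opposed were Nceh1 (-0.26 ± 0.03, SE), Tm6sf1 (-0.30 ± 0.04), Gbe1, the glycogen branching enzyme (-0.19 ± 0.03), Rab8b (-0.18 ± 0.03) and Zfp703 (-0.18 ± 0.03), with limma adjusted p-values from 5.05e-09 to 1.38e-06.

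Macrophage markers and part of the fibroblast markers fell with Tpm1. All 8 macrophage markers fell with Tpm1 (background 8.19% falling), led by Cd68 (-0.44 ± 0.07, SE) and Adgre1 (-0.35 ± 0.07), and 4 of 8 fibroblast markers fell, among them Pdgfra (-0.14 ± 0.03) and Col3a1 (-0.18 ± 0.05). The summed linear level of the macrophage list ran from 29.6 to 257 between animals and that of the fibroblast list from 459 to 2300. None of the 8 endothelial, 8 adipocyte, 7 Schwann cell, 6 smooth muscle or 5 blood markers measured passed. With the first 3 principal components as covariates, and also without animal 84, 1 endothelial marker fell. Of 4 satellite cell markers Vcam1 fell (-0.17 ± 0.04, SE), and of 8 cytoskeletal genes Myh9 fell (-0.06 ± 0.02). Of 7 SRF and MRTF targets Srf rose (0.06 ± 0.02, background 9% rising) and Vcl fell (-0.10 ± 0.03). With the 3 components 0 satellite cell markers and 0 of these targets passed, and 1 cytoskeletal gene rose. The macrophage and fibroblast lists were also sensitive to the fit: with the first 3 principal components as covariates 0 of 8 macrophage markers passed, and 1 of 8 fibroblast markers passed, rising. Without animal 84, 8 of 8 macrophage and 1 of 8 fibroblast markers fell. The fast fibre count was 11 rising and 1 falling in each of these fits. The part of these cells in the other Tpm1 associations was not tested.

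Tpm2 varied inversely with Tpm1. The r of Tpm1 and Tpm2 was -0.342 (two-sided permutation p = 0.00079, adjusted p = 0.00395 over the 10 relations) and rho -0.347 (permutation p = 0.00065), and leaving out the 2 most extreme animals gave -0.366. By run of title numbers r lay between -0.711 and -0.0647. In the fit on Tpm2, 903 of 13440 genes passed (6.72%), of which 621 fell (4.62%) and the others rose (2.1%). With the first 3 principal components of all genes as covariates, 113 passed. The gene most like Tpm2 was Mybpc1, the slow myosin-binding protein C (0.24 ± 0.03, SE), followed by Actn2, the alpha-actinin of all fibres (0.25 ± 0.04), Ndufb10, a subunit of respiratory complex I (0.09 ± 0.02), Got1, the cytosolic aspartate aminotransferase (0.14 ± 0.02), and Hspb6, a small heat shock protein (0.18 ± 0.03). Their limma adjusted p-values ran from 1.58e-08 to 0.000201. The falling ones were Erc1 (-0.13 ± 0.02, SE), Arid1b, a subunit of a chromatin remodeller (-0.10 ± 0.02), Smad4, a mediator of TGF-beta signals (-0.14 ± 0.02), Mtmr3 (-0.10 ± 0.02) and Sorbs2 (-0.18 ± 0.03), with limma adjusted p-values from 3.99e-06 to 0.000165.

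Most lists showed few members past the threshold with Tpm2, against a background of 2.1% rising and 4.62% falling. Of 12 fast fibre genes, Myh4 fell (-0.12 ± 0.02, SE) and Myh1 rose (0.16 ± 0.04), with limma adjusted p-values of 0.00041 and 0.00754. Of 10 slow fibre genes, Myl6b rose (0.14 ± 0.04, limma adjusted p = 0.0313), and Myh7 did not pass (0.24 ± 0.19). In the list for regenerating or immature fibres, Ncam1, a neural cell adhesion molecule (0.16 ± 0.05), and Chrna1, a subunit of the acetylcholine receptor (0.19 ± 0.06), rose out of 5 measured. Both fell with Tpm1 (-0.21 ± 0.05 and -0.20 ± 0.06, SE), where 0 of 5 passed without animal 84. Of the thin filament list Lmod2 rose (0.17 ± 0.06) and Cap2 fell (-0.07 ± 0.02). With the 3 principal components as covariates, 1 fast fibre gene rose and 0 fell, and 0 genes of the slow, immature fibre and thin filament lists passed. With the run of title numbers as covariate, 0 slow and 0 immature fibre genes passed. Without the 2 farthest animals, 0 thin filament genes rose and 1 immature fibre gene did. The relation of Tpm2 with Myh7 did not pass (r = 0.13, rho = 0.142, permutation p = 0.213 and 0.178, adjusted p = 0.355).

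Tpm4 varied with part of the genes for cytoskeletal actin and non-muscle myosin. Its fit had 666 of 13440 genes past the threshold (4.96%), 509 rising (3.79%) and 157 falling (1.17%). The genes most like it were Emp1, a membrane protein of epithelial cells (0.40 ± 0.03, SE), Msn, moesin, which ties actin to the membrane (0.19 ± 0.02), Ednrb, an endothelin receptor (0.38 ± 0.04), Tagln2, an actin-binding protein (0.26 ± 0.03), and Serpinh1, the collagen chaperone (0.34 ± 0.04), with limma adjusted p-values from 1.39e-16 to 1.18e-09. The falling ones were Hdac11 (-0.17 ± 0.03, SE), 4930516B21Rik (-0.17 ± 0.03), Cpeb2 (-0.21 ± 0.04), Mc5r (-0.28 ± 0.05) and Gm37759 (-0.34 ± 0.07). Of 8 genes for cytoskeletal actin and non-muscle myosin 4 rose, namely Tagln2, Myh9, the non-muscle myosin IIA (0.13 ± 0.02), Flna, filamin A (0.19 ± 0.03), and Actg1, cytoskeletal gamma-actin (0.10 ± 0.02). Actb, the beta-actin, did not pass (0.07 ± 0.06). Of 7 targets of the actin-regulated factors SRF and MRTF, Tgfb1i1 (0.12 ± 0.03) and Cnn2, a calponin (0.14 ± 0.03), rose.

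Some marker lists of other cells held genes past the threshold in the Tpm4 fit, against a background of 3.79% rising and 1.17% falling. Of 8 macrophage markers 4 rose, among them C1qb (0.26 ± 0.06, SE) and Mrc1 (0.24 ± 0.06), and of 6 smooth muscle markers Acta2 (0.21 ± 0.05) and Tagln (0.17 ± 0.05) rose. Of 8 fibroblast markers Col3a1 (0.17 ± 0.05) and Pdgfra (0.10 ± 0.03) rose. Of 4 satellite cell markers Vcam1 rose (0.18 ± 0.04) and Cdh15 fell (-0.06 ± 0.02). None of the 8 endothelial, 8 adipocyte, 7 Schwann cell and 5 blood markers passed. The summed linear level of the smooth muscle list ran from 98.7 to 529. With the 3 principal components as covariates 0 of 8 macrophage, 0 of 8 fibroblast and 0 of 4 satellite cell markers passed, and the counts for cytoskeletal actin (4) and smooth muscle (2) kept their size. Without the 2 animals farthest from the median Tpm4 level, 1 of 6 smooth muscle, 3 of 8 macrophage and 4 of 8 fibroblast markers rose, and Cdh15 did not pass. With the run as covariate 3 of 8 macrophage markers rose and Cdh15 did not pass. None of the 12 fast fibre and 10 slow fibre genes passed. The part of these cells in the Tpm4 associations was not tested.

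**Figure D5:**
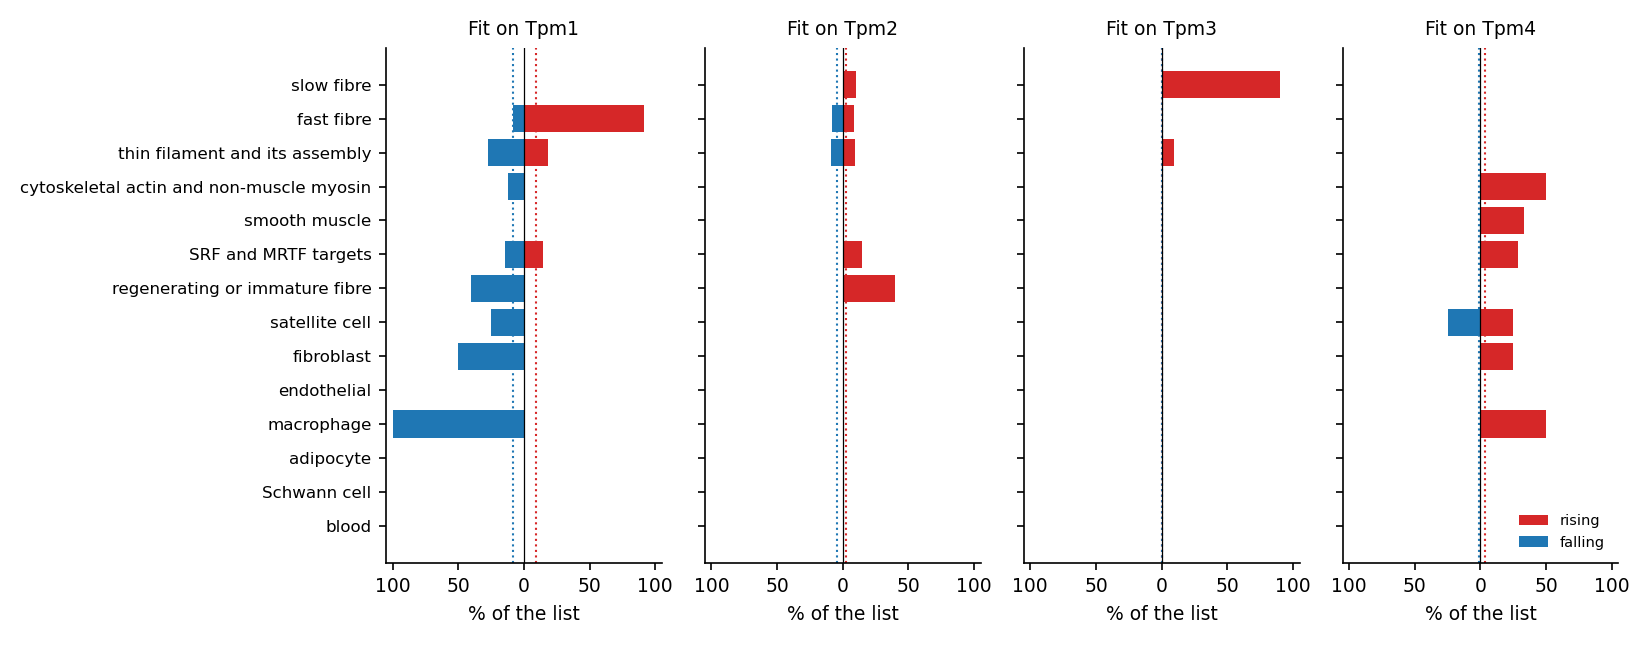
Percentage of the measured genes of each of 14 lists that rose (right, red) or fell (left, blue) past the adjusted threshold in the limma fits on Tpm1, Tpm2, Tpm3 and Tpm4; dotted lines show the percentage over all genes. The slow fibre list stands out for Tpm3 (9 of 10 rising), the fast fibre list for Tpm1 (11 of 12 rising) and the macrophage list for Tpm1 (8 of 8 falling).

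Of the 10 relations tested 3 passed: Tpm3 with Myh7, and between members Tpm1 with Tpm2 and Tpm2 with Tpm4. The last had an r of 0.284 (two-sided permutation p = 0.00616, 0.0205 after adjustment over the 10) and a rho of 0.264 (permutation p = 0.0114), and leaving out the 2 most extreme animals gave 0.272. By run r lay between 0.153 and 0.643. With the 3 principal components as covariates it did not pass (r = 0.25, permutation p adjusted to 0.0541). Tpm3 with Tpm4 did not pass (r = 0.204 with a permutation p of 0.0511, 0.128 after adjustment, and rho = 0.222 with a permutation p of 0.034). Its sign was positive in 5 of 5 runs, and with the run as covariate it passed (r = 0.273, permutation p adjusted to 0.0211). The r of Tpm1 with Tpm3 was -0.0176 (permutation p = 0.866) and that of Tpm2 with Tpm3 0.105 (permutation p = 0.321). Per SD of Tpm3-rs7, the slopes of Tpm1, Tpm2 and Tpm4 were 0.01 ± 0.02, -0.01 ± 0.04 and -0.04 ± 0.04 (SE).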

How the data were processed

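The deposited table holds log2 values of 92 quadriceps samples, and the scale was read from the values: 2 to the power of each value sums to between 898071 and 1140761 per sample. Per the submitters' processing notes the tools include bcl2fastq, kallisto 0.50.1 and edgeR, with mm10; their settings are not given in the sources used here. After 15 repeated lines were removed, 13441 genes remained, of which 13258 were found in GENCODE M21 (183 were not). Each tropomyosin's standardised log2 value was the predictor in limma 3.58.1 (R 4.3.3), letting the prior variance follow the mean, and p-values were adjusted by Benjamini-Hochberg over 13440 genes. Correlations had two-sided permutation tests of 100000 resamples. Runs of title numbers separated by over 30 (33, 14, 21, 11 and 13 animals) stood in for a possible batch. Transcripts were aligned with biopython 1.88. The text names, per fit, up to 5 rising and 5 falling genes past the threshold, with a mean of at least 1 and the largest moderated t, list members, Myh7 and the genes nearest to Tpm3 and Tpm3-rs7. Members and lists were chosen with earlier results of these data known. P-values measure the spread between these samples. Fits were tested on simulated data.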

Additional observations from a re-analysis of the deposited data

How the results depend on the processing

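Adjusting for 3 principal components left 892 genes past the threshold for Tpm1 in place of 2310 (606 shared) and 113 for Tpm2 in place of 903 (91 shared), and r turned to 0.0866 for Tpm1 with Tpm3 and to 0.165 for Tpm1 with Tpm4, neither of which passed, and Tpm2 with Tpm4 no longer passed (r = 0.25, adjusted p = 0.0541); the cause was not tested. With the title-number run as a covariate, Tpm1 with Tpm3 turned to 0.0167, Tpm3 with Tpm4 passed (r = 0.273, adjusted p = 0.0211), and 4 genes passed for Tpm3-rs7. Without the 2 farthest animals the count was 1210 for Tpm1 and 1 for Tpm3-rs7, and without 1 of them it was 1599 to 1999 for Tpm1. With ranks of the predictor 1 gene passed for Tpm3-rs7, and within the 65 animals above its gap 27 passed, 1 of them shared. There Mrpl19 had a slope of -0.01 per SD among those 65 animals. Among the alternative slopes of named genes, 266 kept direction and call, 9 lost the call and 1 reversed. No paired analysis was possible because the labels give 1 group. Depth in reads is unknown, so values near the floor, as for Tpm3-rs7, have no counting interval.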

Other observations

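Genes near a tropomyosin on the same chromosome were also read in the fit on that tropomyosin. The counts are calls of the fit without covariates, and no test compared a window with all genes. Within 5 Mb of Tpm1, 21 of 71 measured genes passed, against 17.2% of all genes, and Rab8b, a small GTPase of vesicle traffic, had the largest moderated t by size at -6.57. Within 5 Mb of Tpm2, 9 of 98 passed, against 6.72%, with Vcp, an unfolding ATPase, at -4.78. Within 5 Mb of Tpm4, 8 of 116 passed, against 4.96%, with B3gnt3, a glycosyltransferase, at 6.98. With windows of 2 Mb and 10 Mb the counts for Tpm1 were 13 of 34 and 33 of 144. For Tpm2 they were 6 of 58 and 10 of 116, for Tpm4 6 of 81 and 10 of 143, and for Tpm3 0 of 73 and 0 of 205.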
